A study of Mus musculus with 8 samples.

Results

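Elastic fibres give skin, vessels and lung their recoil. Their core of elastin is laid onto a scaffold of fibrillin microfibrils, guided there by fibulins and other adaptor proteins. Copper-dependent enzymes of the lysyl oxidase family then join lysine residues of elastin, and of collagen, into crosslinks. Embryonic fibroblasts make and secrete most of these components. The genes described here are 10 named components of that system: elastin (Eln), the fibrillins Fbn1 and Fbn2, the fibulins Fbln1, Fbln2 and Fbln5, the microfibril protein Ltbp2, and the crosslinking enzymes Lox, Loxl1 and Loxl2. Members were chosen by gene symbol from a list drawn up with the Daxx against vector differences of these arrays known, taking the probe set of highest mean over the 8 arrays where a gene had several. Of the 10 genes, 8 were measured on a probe set of their own, among 19938 genes in all. Loxl2 lay only on a probe set that carries a further symbol, and Fbn1 was not analysed because the probe annotation does not list it. Each of the 8 measured genes had 1 such probe set, so the mean level made no choice among them.

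All samples were mouse embryonic fibroblasts with a Daxx knockout on an FVB/N background, so every group, controls included, lacks the endogenous gene by its label. In the vector group (4 arrays) the cells were complemented with a vector, and in the DaxxA (2 arrays) and DaxxB (2 arrays) groups they were complemented with Daxx, a histone chaperone and transcriptional regulator. All cells were grown in medium with 10% serum and harvested 24 h after seeding. The labels do not give the meaning of A and B, the agent that delivered Daxx, or the number of cultures or clones behind a group, so p-values measure the spread between these samples alone, and that spread may be technical. The stated aim was to find target genes of Daxx. Values here are log2 signals of single arrays, and a difference of 1 on this scale is a doubling.

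Several facts of the whole series bear on what follows. Vector replicate 2 stood apart: its interquartile range was 2.79, where the other 7 arrays had 3.31 to 3.39, and it was the lowest of the 4 vector arrays for 7 of the 8 members and the highest for 1. Over all genes it was lowest in 39.2% and highest in 48.8%. Its median over the olfactory receptor genes, mostly dim probe sets, was 5.21, against 4.65 to 4.70 in the other 7 arrays. Results are therefore given with it and without it. The Daxx probe set itself averaged 7.15 ± 0.216 (SD, n = 4) for vector and 7.35 ± 0.0964 (SD, n = 4) for Daxx (limma adjusted p = 0.46). It does not separate the groups, and all directions below rest on the labels. The mean over 12 fibroblast markers was 9.07 to 9.53, from vimentin (Vim) at 13.25 to 13.37 down to lumican (Lum) at 4.33 to 5.50. The mean over 6 endothelial markers was 5.50 to 5.84, over 6 epithelial markers 6.11 to 6.53 and over 6 blood cell markers 5.73 to 6.13, and 0 genes of these 3 lists passed limma's test between Daxx and vector, with 0 also at an unadjusted p under 0.05. Bulk RNA cannot tell fewer cells of a type from less RNA per cell.

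Fbln5, Ltbp2, Lox and Fbn2 were lower in the Daxx arrays than in the vector arrays, and elastin itself was not called. Fbln5 moved most, falling 2.73-fold, followed by Ltbp2 (1.62-fold), Lox (1.54-fold) and Fbn2 (1.34-fold). In each of these 4 genes all 4 Daxx values lay below all 4 vector values. Fbln1, Fbln2, Loxl1 and Eln were not called. These 4 calls were made in limma's fit of 4 Daxx against 4 vector arrays over all genes, with Benjamini-Hochberg adjustment at 0.05. Over all genes the same test called 4.52%, with 2.73% lower and 1.8% higher. All 4 Daxx values lay below all 4 vector values in 6.79% of genes and above them in 8.02%, together 14.8%. Without vector replicate 2 the test called 5 members, Fbln1 being the addition, against 12.8% of all genes (7.57% lower and 5.26% higher). The median difference was -0.33 over the 8 members and -0.03 over all genes. Fbln5 and Lox were known to differ in these arrays when the genes were put together, so the member count is a description of a chosen list. The number of genes called over the whole array was 902, which became 2558 without vector replicate 2 and 446 to 559 without any single one of the other 7 arrays.

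**Figure D1:**
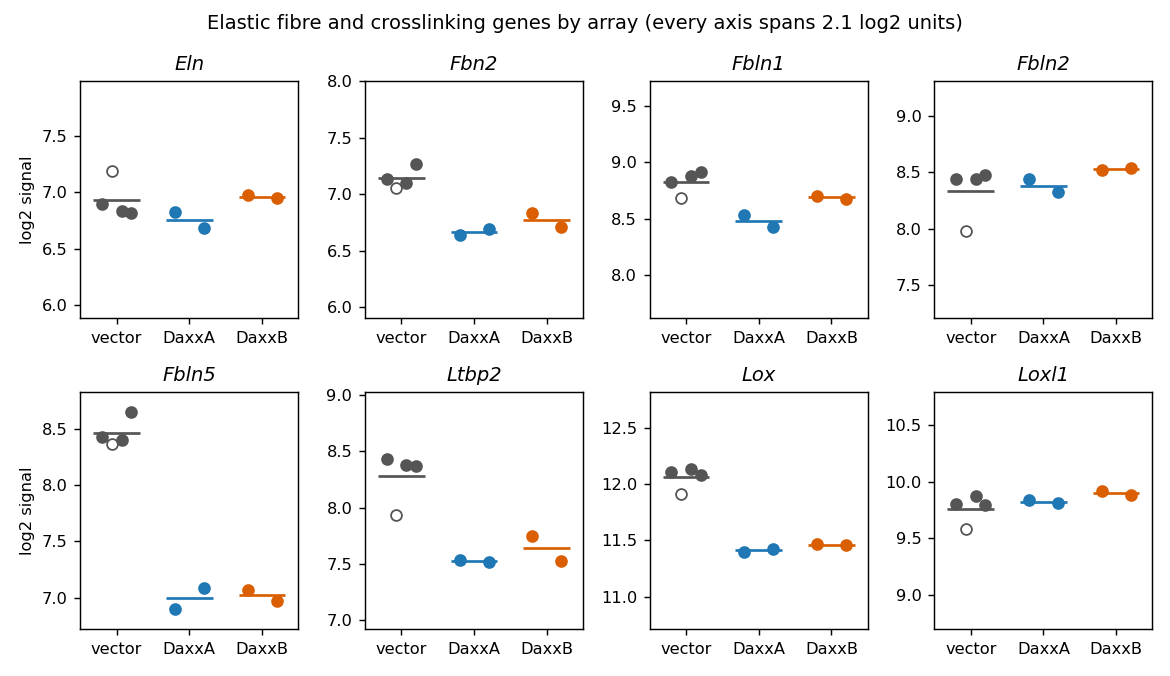
Log2 signal of the 8 measured genes on each array, by group (points, 1 per array; horizontal lines, group means; open point, vector replicate 2). Fbln5, Ltbp2, Lox and Fbn2 sit lower in all DaxxA and DaxxB arrays than in any vector array, while the groups overlap for Eln, Fbln1, Fbln2 and Loxl1.

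Fbln5 encodes fibulin-5, a short fibulin that binds tropoelastin, the enzyme Loxl1 and cell surface integrins, and that is needed to assemble elastic fibres in mice. Its signal was 8.42, 8.36, 8.40 and 8.65 in the vector arrays. It was 6.91 and 7.09 in the DaxxA arrays and 7.07 and 6.97 in the DaxxB arrays. The groups were thus far apart, with the highest Daxx value more than 1 log2 unit under the lowest vector value. Fbln5 fell by 1.45 on the log2 scale (SE 0.0772, 95% interval -1.62 to -1.27, limma adjusted p = 2.72e-05, lower in 4 of 4 Daxx arrays). That difference was number 14 from the lowest among 19938 genes. Leaving out each array in turn kept it between -1.48 and -1.38, and it was called every time.

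Ltbp2 encodes a latent TGF-beta binding protein of microfibrils that, unlike its relatives, does not carry TGF-beta and binds fibrillin and fibulin-5. Its vector values were 8.43, 7.93, 8.38 and 8.37. Its DaxxA values were 7.53 and 7.52, and its DaxxB values 7.75 and 7.52. Vector replicate 2 and DaxxB replicate 1 each stood off from their groups, towards one another, yet the groups did not overlap. Ltbp2 fell by 0.69 (SE 0.116, 95% interval -0.96 to -0.43, limma adjusted p = 0.0114), and by 0.81 without vector replicate 2 (limma adjusted p = 1.32e-05). The call was lost at a limma adjusted p of 0.0501 without DaxxB replicate 2, where the difference was -0.67.

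Fbln5 and Ltbp2, which lie on the same mouse chromosome, are the called members for which an upstream sequence was at hand, and the sequences are shown because both genes were lower in the same arrays. RefSeq promoter entries (GRCm38.p6) matched 4 of the 8 measured members, Fbln1, Fbln2, Fbln5 and Ltbp2. The Fbln5 window is chr12:101819120-101819369 on the minus strand, the 250 bases before the outermost annotated start. The Ltbp2 window is chr12:84876559-84876741 on the minus strand, bases -250 to -68 from the start in its promoter entry. It was trimmed to these 183 bases because the annotated span of the gene reaches further upstream than that start. Both are written 5′ to 3′ along the gene's strand, with capitals marking the GC box GGGCGG, the binding motif of Sp1-family factors, which appears here as its reverse complement CCGCCC.
Fbln5: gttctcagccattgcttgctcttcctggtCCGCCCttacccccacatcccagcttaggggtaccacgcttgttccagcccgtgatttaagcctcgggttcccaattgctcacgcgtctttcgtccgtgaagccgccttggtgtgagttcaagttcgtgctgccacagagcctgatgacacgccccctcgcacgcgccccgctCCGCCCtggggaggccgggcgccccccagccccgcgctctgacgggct
Ltbp2: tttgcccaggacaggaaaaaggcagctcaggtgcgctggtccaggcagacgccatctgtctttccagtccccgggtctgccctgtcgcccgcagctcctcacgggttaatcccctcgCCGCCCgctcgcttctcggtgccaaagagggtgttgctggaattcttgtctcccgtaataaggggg
The Fbln5 window held 2 GC boxes and the Ltbp2 window 1. On either strand GGGCGG is present in 32.7% of 32851 mouse promoter windows of 250 bases and in 21.5% of windows matching the 183 bases of Ltbp2, so its presence is common. The letters of the TATA box (TATAAA), of the AP-1 site (TGACTCA), and the strings CAGACA and GGAATG were found in neither window on either strand. In windows of 250 bases they are present in 12.4%, 4.46%, 17.1% and 12.6% of promoters. With GGGCGG the one motif found, no match overlapped another motif. A match is a run of letters and was not tested as a site.

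Lox encodes lysyl oxidase, the founding crosslinking enzyme of elastin and collagen. Its signal was 12.11, 11.91, 12.14 and 12.08 in the vector arrays. The DaxxA arrays read 11.40 and 11.43, and the DaxxB arrays 11.47 and 11.46. The Daxx values lay close to one another and well under the lowest vector value. Lox fell by 0.62 (SE 0.0616, 95% interval -0.76 to -0.48, limma adjusted p = 0.000699, lower in 4 of 4 Daxx arrays). Leaving out single arrays gave -0.67 to -0.59, with each of the 8 fits calling it.

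Loxl1, a relative of Lox that fibulin-5 recruits to elastin, did not share that pattern. Its vector values were 9.80, 9.58, 9.87 and 9.79. The DaxxA values were 9.84 and 9.81, and the DaxxB values 9.91 and 9.88. Apart from vector replicate 2, all arrays lay close together and the groups overlapped. The Loxl1 difference was 0.10 (SE 0.0708, 95% interval -0.06 to 0.26, limma adjusted p = 0.61), and 0.04 without vector replicate 2. Within the lysyl oxidase family, Lox was therefore called lower and Loxl1 was not called. The difference between these 2 genes was not tested.

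Fbn2 encodes fibrillin-2, the fibrillin that predominates in microfibrils of the embryo. Its vector values were 7.14, 7.06, 7.10 and 7.27. The DaxxA arrays gave 6.64 and 6.69, and the DaxxB arrays 6.83 and 6.71. Its groups did not overlap, although the gap between them was small. Fbn2 fell by 0.42 (SE 0.0665, 95% interval -0.57 to -0.27, limma adjusted p = 0.00844, lower in 4 of 4 Daxx arrays). Its call held without each single array, at -0.46 to -0.38.

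Elastin (Eln) is the protein that the other components arrange and crosslink. Its vector values were 6.90, 7.18, 6.83 and 6.81, with vector replicate 2 the highest. Its DaxxA values were 6.83 and 6.68, and its DaxxB values 6.97 and 6.95. The DaxxA arrays thus lay in or under the vector range and the DaxxB arrays inside it. The Eln difference was -0.07 (SE 0.0998, 95% interval -0.30 to 0.15, limma adjusted p = 0.757), and it became 0.011 without vector replicate 2. The interval leaves room for changes of that size in either direction, and none was detectable with these arrays. The mean Eln signal lay above that of 99.0% of the olfactory receptor genes on the array, which served as a reference for dim probe sets. By the same measure the epithelial marker Krt8 stood at 99.6% and the cartilage marker Col2a1 at 99.8%. A high share therefore does not show that a gene is expressed. Eln also lay under the median level of all genes, and whether a low signal hides a change in it was not tested.

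Fbln1 and Fbln2 are the longer fibulins, found in microfibrils, basement membranes and elastin-rich matrix. Neither was called in the unweighted fit of the 8 arrays as deposited. The Fbln1 values were 8.83, 8.68, 8.88 and 8.92 in the vector arrays, 8.53 and 8.42 in DaxxA, and 8.70 and 8.67 in DaxxB. The DaxxB values touched the lowest vector array, vector replicate 2, and lay under the other 3. Fbln1 differed by -0.24 (SE 0.0812, 95% interval -0.43 to -0.06, limma adjusted p = 0.165), and without vector replicate 2 it fell by 0.29 (limma adjusted p = 0.0175). Fbln1 was also called after quantile normalization (-0.28, limma adjusted p = 0.0408) and with array weights (-0.28, limma adjusted p = 0.0044). The Fbln2 values were 8.44, 7.97, 8.44 and 8.48 in the vector arrays, 8.44 and 8.33 in DaxxA, and 8.52 and 8.54 in DaxxB. Without vector replicate 2 the Fbln2 difference went from 0.12 (SE 0.115, 95% interval -0.14 to 0.38, limma adjusted p = 0.688) to 0.0036. In the unweighted fit of the 8 arrays as deposited, Fbln5 was therefore called and the longer fibulins were not. Differences between the 3 fibulins were not tested.

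**Figure D2:**
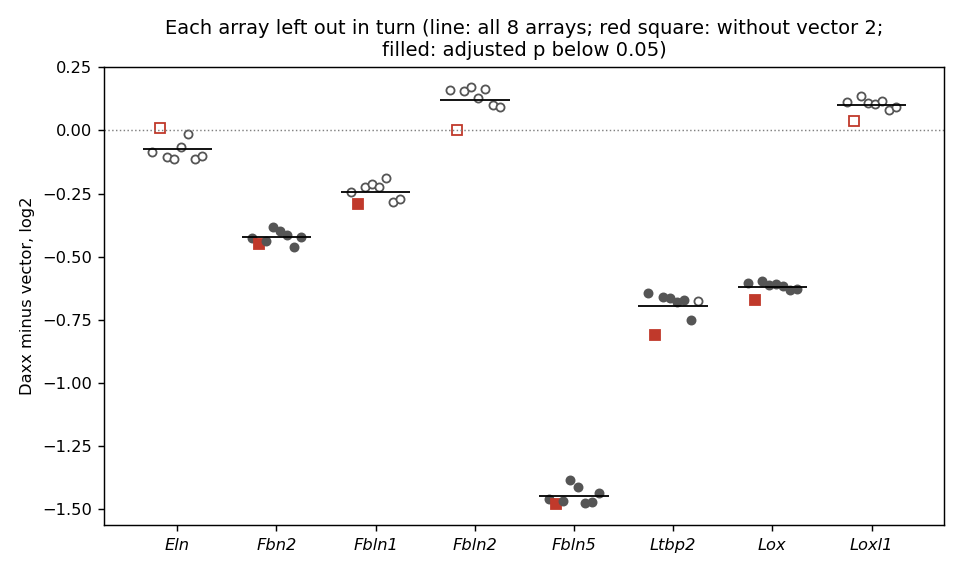
Daxx minus vector difference (log2) of each gene with 1 array left out at a time (points; horizontal line, all 8 arrays; red square, without vector replicate 2; filled, limma adjusted p below 0.05). Fbln5, Lox and Fbn2 are filled in every fit, Ltbp2 is open once at -0.67, and Fbln1 is filled without vector replicate 2 at -0.29.

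The Daxx groups were then set against vector one at a time. These comparisons share the vector arrays, so their likeness is not independent. In limma's fit of 3 groups Fbln5 fell by 1.46 in DaxxA (SE 0.0995, adjusted p = 0.000731) and fell by 1.43 in DaxxB (SE 0.0995, adjusted p = 0.000583). Lox fell by 0.65 in DaxxA (SE 0.0764, adjusted p = 0.00705) and fell by 0.59 in DaxxB (adjusted p = 0.00939). Fbln5 and Lox were thus called in both groups of Daxx arrays. Fbn2 fell by 0.48 in DaxxA (adjusted p = 0.0283) and differed by -0.37 in DaxxB (adjusted p = 0.0597). Ltbp2 differed by -0.75 in DaxxA (adjusted p = 0.0596) and by -0.64 in DaxxB (adjusted p = 0.0826). Fbn2 in DaxxB and Ltbp2 in both groups therefore missed the threshold.

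In all, 3 members were called in DaxxA, where the background over all genes was 1.97% (1.45% lower and 0.522% higher), and 2 in DaxxB, where it was 2.69% (1.92% lower and 0.767% higher). Single arrays set these counts. Without vector replicate 2 each became 5, Fbn2, Fbln1, Fbln5, Lox and Ltbp2, against a background of 11.3% in DaxxA (6.8% lower and 4.46% higher) and 20.5% in DaxxB (9.53% lower and 10.9% higher). Fbn2 in DaxxA was lost without any single one of the other 7 arrays (adjusted p = 0.0577 to 0.299). Lox was lost in DaxxA without either DaxxA replicate (adjusted p = 0.119 and 0.118) and in DaxxB without either DaxxB replicate (adjusted p = 0.134 and 0.139), which left Fbln5 as the one member called in that group. Such a fit leaves 1 array in the group, assumed to vary like the others, and the Lox differences themselves were -0.63 and -0.66 in DaxxA and -0.60 and -0.59 in DaxxB.

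**Figure D3:**
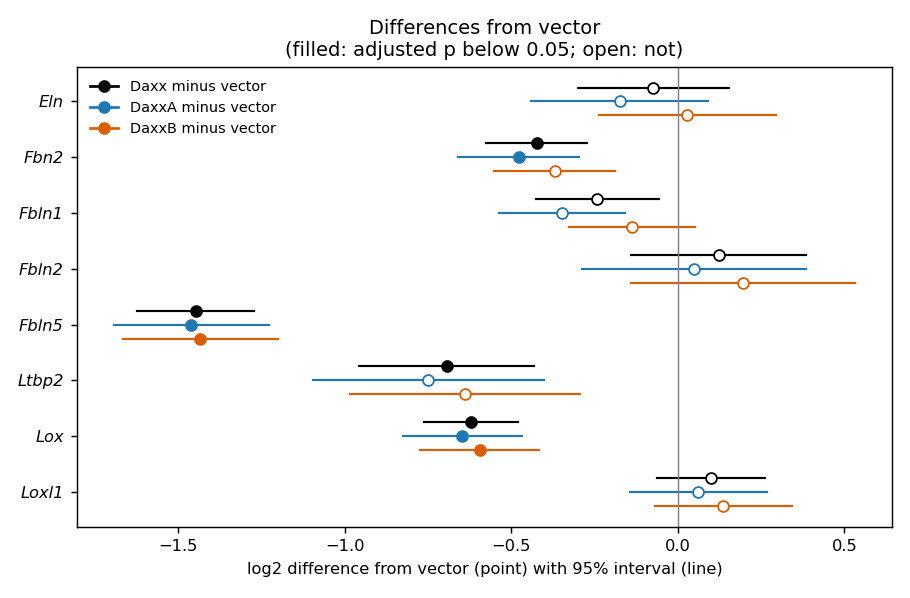
Difference from vector on the log2 scale for each gene (points) with its 95% interval (lines), for all Daxx arrays, DaxxA and DaxxB (filled, limma adjusted p below 0.05). Fbln5 lies near -1.45 in all 3 comparisons, and the intervals of Eln, Fbln2 and Loxl1 cross 0 in each.

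Between the Daxx groups, 0 members and 0 of all genes were called by limma on 8 arrays (0% of genes), while an unadjusted p under 0.05 was reached by 0 members and by 846 genes. The difference, DaxxA minus DaxxB, was smallest for Fbln5 (-0.03, 95% interval -0.30 to 0.24) and Lox (-0.05, 95% interval -0.26 to 0.15). It was -0.21 for Fbln1 (95% interval -0.43 to 0.01) and -0.20 for Eln (95% interval -0.51 to 0.10). All 8 members had a DaxxA mean below the DaxxB mean, as did 63.8% of all genes. In 6 of the 8, all but Fbln5 and Ltbp2, both DaxxA arrays lay below both DaxxB arrays, as they did for 35.9% of all genes. Without vector replicate 2 the fit called 428 genes (2.15%, with 1.36% lower and 0.787% higher) and still 0 members, of which Eln, Fbln1 and Fbln2 had an unadjusted p of 0.00757, 0.00404 and 0.0228. In that fit 4445 of the 19938 genes had an unadjusted p under 0.05.

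The other genes of the pathway were taken as 3 lists by role. Of 21 measured partners of microfibrils and elastin assembly, 2 fell, 1 rose and 18 did not pass. Over all genes the same test called 2.73% lower and 1.8% higher. Dcn, the small proteoglycan decorin, fell 2.76-fold (SE 0.0943, limma adjusted p = 5.47e-05). Mfap2, a microfibril glycoprotein that binds fibrillin and tropoelastin, fell 1.47-fold (SE 0.0531, limma adjusted p = 0.000599). Its vector values ran from 9.48 to 9.59 and its Daxx values from 8.93 to 9.05, so its groups were apart. Adamts6, a secreted metalloprotease, rose 1.35-fold (SE 0.0856, limma adjusted p = 0.0241) but lost its call without vector replicates 1 or 3 or any 1 of the 4 Daxx arrays (adjusted p = 0.0621 to 0.0817). The list median was -0.08. The counts without vector replicate 2 were 6 lower and 2 higher, against 7.57% and 5.26% of all genes. Latent TGF-beta binding relatives of Ltbp2 were not called: Ltbp1 differed by -0.04, Ltbp3 by -0.04 and Ltbp4 by 0.09.

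Of 15 crosslinking partners, 3 rose, 1 fell and 11 did not pass, with a median of 0.08. The share of all genes was 1.8% higher and 2.73% lower. Leaving out vector replicate 2 gave 3 higher and 3 lower, against 5.26% and 7.57% of all genes. Pcolce2, whose product speeds the cleavage of procollagen, rose 1.97-fold (SE 0.0721, limma adjusted p = 0.000125). Tgm2, transglutaminase 2, which forms another kind of protein crosslink, rose 1.77-fold (SE 0.0713, limma adjusted p = 0.00033), from 7.83 to 7.91 in the vector arrays to 8.52 to 8.84 in the Daxx arrays. Atox1, a copper chaperone, rose 1.29-fold (limma adjusted p = 0.0166), and Pcolce, the close relative of Pcolce2, fell 1.16-fold (limma adjusted p = 0.0358). Bmp1, the protease that activates Lox, differed by 0.20 (limma adjusted p = 0.247), and the lysyl oxidases Loxl3 and Loxl4 by -0.24 (limma adjusted p = 0.423) and 0.15 (limma adjusted p = 0.39). Crosslinking genes thus went both ways, with Lox lower and Tgm2 higher in the same arrays.

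Of 17 receptors and elastin-degrading enzymes, 2 rose, 0 fell by limma (1 at an unadjusted p under 0.05) and 15 did not pass, with a median of 0.02. The share of all genes was 1.8% higher and 2.73% lower. Leaving out vector replicate 2 gave 2 higher and 2 lower, against 5.26% and 7.57% of all genes. Those higher on all arrays were Itga5, a fibronectin-binding integrin chain (1.28-fold, limma adjusted p = 0.00822), and Mmp9, a gelatinase that also cleaves elastin (1.46-fold, limma adjusted p = 0.0422). Mmp9 read 8.77, 8.23, 8.73 and 8.78 in the vector arrays, against 9.09 to 9.24 with Daxx. It was called on all 8 arrays and without vector replicate 2 (0.42, limma adjusted p = 0.000333), and it lost its call without any single one of the other 7 arrays (adjusted p = 0.0616 to 0.136). The same loss befell Pcolce (adjusted p = 0.0957 to 0.123), and Atox1 was lost without vector replicates 1 or 3 or without either DaxxB replicate (adjusted p = 0.0609 to 0.0671).

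**Figure D4:**
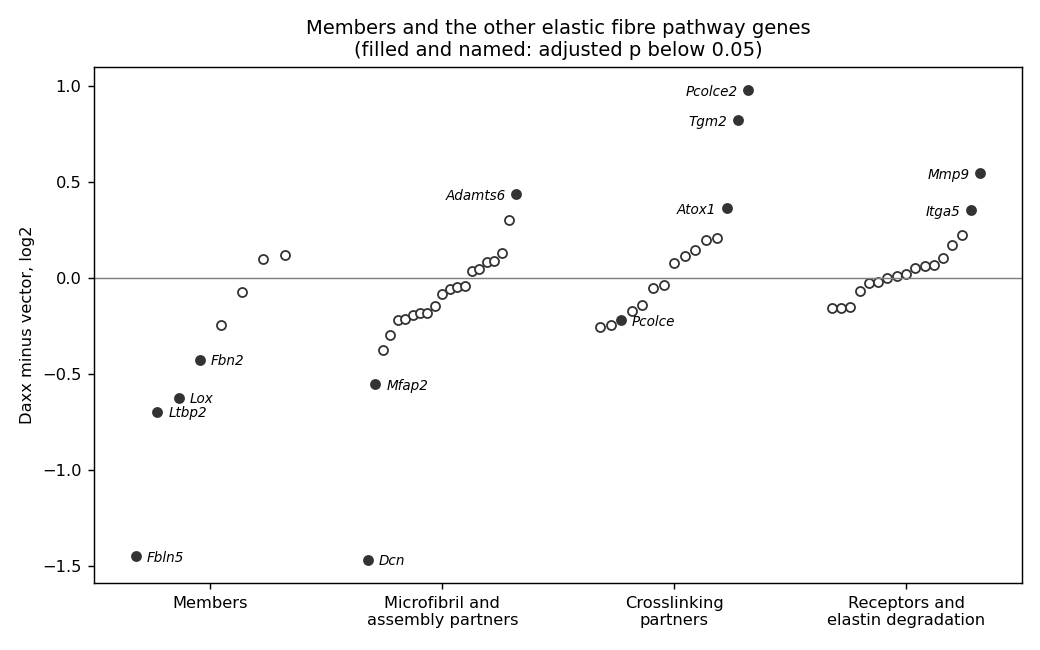
Daxx minus vector difference (log2) of every measured gene among the members and in 3 lists of pathway partners, each list sorted by its value (points; filled and named, limma adjusted p below 0.05). Fbln5 and Dcn lie lowest, near -1.45, and Pcolce2 (0.98) and Tgm2 (0.82) highest.

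Some markers of fibroblasts and of smooth muscle and pericytes were called in the same arrays. Of 12 fibroblast markers 5 fell, Prrx1, Dcn, Pdgfrb, Twist2 and Pdgfra, 1 rose (Col1a2) and 6 did not pass. Dcn was also counted among the assembly partners above. Over all genes the same test called 2.73% lower and 1.8% higher. The mean level of the fibroblast markers ran from 9.51 to 9.53 with vector and from 9.07 to 9.24 with Daxx. Of 8 markers of smooth muscle and pericytes 2 rose, Acta2 and Tagln, and 6 did not pass. Differences were below 0 for 3 of them and above 0 for 5 (1 and 7 without vector replicate 2). The list mean was 7.21 to 7.46 in the vector and 7.41 to 7.53 in the Daxx arrays. The highest vector mean was 7.30 when vector replicate 2 was left out, under every Daxx array. Of 4 markers of cartilage and bone 0 passed limma's adjusted threshold and 1, Sox9 (a difference of 0.21), had an unadjusted p under 0.05, with a mean of 6.93 to 7.26 in the vector and 7.02 to 7.16 in the Daxx arrays. Sox9 was called without vector replicate 2 (0.21, limma adjusted p = 0.0173). The part of these differences in the values of Fbln5, Ltbp2, Lox and Fbn2 was not tested.

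The genes whose pattern lay nearest to that of Fbln5 were found by centring each gene on its mean and taking the root mean square difference of log2 values over the 8 arrays. The nearest were Fat4, a large protocadherin (0.102), Cxcl12, a stromal chemokine (0.106), Rasl11a, a small GTPase-like protein (0.106), Cdh11, a mesenchymal cadherin (0.108), and Ppargc1a, a transcriptional coactivator of mitochondrial genes (0.109). Their Daxx minus vector differences were -1.47, -1.38, -1.56, -1.29 and -1.32. The nearest to Eln, which read highest in vector replicate 2 and lowest in DaxxA replicate 2, were Rhox11 (0.0244), Aldh1a3 (0.0285), Ccno (0.0345), Epx (0.0349) and Cldn18 (0.0355), with differences from -0.11 to -0.05. Their means in the vector arrays ran from 5.23 (Epx) to 7.08 (Aldh1a3), with Eln itself at 6.93. The likenesses to Fbln5 and to Eln are descriptions over 8 arrays that include the contrast itself and vector replicate 2.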

How the data were processed

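The deposited values are log2 signals that the authors made with Affymetrix Expression Console and RMA, per the submitters' processing notes. RMA subtracts background, quantile-normalizes the arrays and summarises each probe set, which compresses differences near background. For tool versions and the array's library file, the sources used here give none. Of 35556 probe sets, 21789 had 1 gene symbol in the platform annotation, 1621 several and 12146 none listed. The first kind gave 19938 genes. Differences were fitted with limma 3.58.1 in R 4.3.3 (lmFit, eBayes) on all genes, with Benjamini-Hochberg adjustment and a threshold of 0.05. Daxx minus vector used 2 conditions, and the other comparisons 1 fit of 3 groups. The fits were tested on simulated data. Precision is limited by the number of arrays. No detection calls were used.

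Named genes were the members, up to 4 called genes per pathway list by adjusted p, and the 5 nearest patterns to Fbln5 and Eln. Others are named to complete a list. The members and lists were chosen with earlier results of these data known. Alternatives were leaving out each array, a replicate block, quantile normalization, array weights, another prior, a filter on dim genes and averaged probe sets. Deviations from the group mean correlated at 0.0238 to 0.162 between arrays with the same replicate number. Arrays with different numbers were not compared, so these values cannot tell whether the numbers pair the samples. No 2 arrays were identical.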

Additional observations from a re-analysis of the deposited data

Results flagged for a closer look

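Among 34 groups of 4 arrays examined, for the members and the named pathway genes, 4 held an array far from the other 3 by Dixon's 95% criterion for the gap to the nearest array over the range, where chance gives about 1 in 20. Vector replicate 2 was the lowest vector array for Fbln2 (7.97, with the next at 8.44), for Ltbp2 (7.93, with the next at 8.37) and for Mmp9 (8.23, with the next at 8.73). DaxxB replicate 1 was the highest Daxx array for Ltbp2 (7.75, with the next at 7.53).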

How the results depend on the processing

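Fbln5 kept its direction and its call in Daxx minus vector under all 14 alternatives (-1.48 to -1.38). Without 1 array at a time, the genes called ranged from 446 to 2558 for Daxx minus vector, 71 to 2246 for DaxxA minus vector, 82 to 4083 for DaxxB minus vector and 0 to 428 for DaxxA minus DaxxB. The members called ranged from 3 to 5, 1 to 5 and 1 to 5 for the first 3 and stayed at 0 for the last. The highest counts of genes, and of members where the count moved, came without vector replicate 2.

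The replicate block joined samples that are not known to share more than a number. Numbers 3 and 4 occur in the vector group alone, so the vector side of the block fit rests on vector replicates 1 and 2. The block is therefore no check on every array. It gave 162 genes and 1 member (Fbln5) for Daxx minus vector. For DaxxA and DaxxB against vector it gave 0 genes and 0 members each, with 1951 and 2002 genes and 5 and 4 members at an unadjusted p under 0.05, and the Eln difference in DaxxB turned to -0.082. Lox had a block adjusted p of 0.0537 in Daxx minus vector, Ltbp2 0.104 and Fbn2 0.141. Quantile normalization gave 1402 genes for Daxx minus vector, 659 genes and 5 members for DaxxA, and 1037 genes and 4 members for DaxxB. Array weights gave 3231, 2718 and 4252 genes, with 5 members for DaxxA and 5 for DaxxB, and 485 genes for DaxxA minus DaxxB. Under them Eln turned to 0.0084 in Daxx minus vector, and Fbln2 and Loxl1 to -0.060 and -0.0074 in DaxxA. The filter on dim genes, which removed Eln and Fbn2, gave 1442, 633 and 1051 genes, and the other prior 901 genes for DaxxB. Averaging probe sets moved no count by over 1.5 times. Without single arrays the sign changed for uncalled differences: Eln in Daxx minus vector (-0.11 to 0.011) and in DaxxB (-0.012 to 0.11), Fbln2 in DaxxA (-0.070 to 0.10), and Fbln5 (-0.12 to 0.063) and Ltbp2 (-0.23 to 0.0031) in DaxxA minus DaxxB. The causes were not tested.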

Other observations

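Without vector replicate 2, another 9 genes of the pathway lists were called in Daxx minus vector, 8 lower and 1 higher, chosen here after their values were seen. Lower were Adamtsl5 (-0.49), Postn, the matricellular protein periostin that scaffolds crosslinking (-0.42), Efemp1, a fibulin relative (-0.39), Loxl3, another lysyl oxidase (-0.37), Itgb5, an integrin chain (-0.27), Vcan, the proteoglycan versican (-0.25), Adamtsl4, a microfibril-associated protein (-0.25), and Ctsa, the lysosomal cathepsin A (-0.16). Adamts10, a microfibril-associated metalloprotease, was higher (0.16). On 8 arrays their limma adjusted p-values ran from 0.0827 to 0.606. The background without that array was 12.8% of genes called.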
